A study of Mus musculus with 10 samples.

Results

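The genes described here are 8 RNA-binding protein genes linked to amyotrophic lateral sclerosis (ALS), *Tardbp*, *Matr3*, *Hnrnpa1*, *Hnrnpa2b1*, *Tia1*, *Ewsr1*, *Taf15* and *Atxn2*, together with *Unc13a*, whose human transcript is a splicing target of TDP-43. They were chosen by symbol and not by a measured value, though earlier results of these data were known. All 9 were found among the 25232 genes listed for the mouse spinal cord. None of the 9 genes was called as changed between SOD1 G93A and WT mice, where 7.10% of the 16522 genes tested were called, 3.86% as higher and 3.24% as lower. Their log2 fold changes lay between -0.0686 (*Hnrnpa1*) and 0.0631 (*Taf15*), and 5 were positive and 4 negative.

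The libraries were made from spinal cord RNA of 5 SOD1 G93A and 5 WT female mice at 90 days of age, an early symptomatic stage of this model. The strain labelled for both groups is C57BL/6, the study's methods give a C57BL/6J background, and the WT mice were littermates without the transgene. The SOD1 G93A mice express, from many transgene copies, human SOD1 with an amino acid change known from inherited ALS, so the amount of SOD1 differs from WT as well as its sequence. The tissue is labelled as spinal cord, without a region, and is lumbar according to the study's methods. The deposited table holds the outcome of 1 comparison and no value of a single library, so the spread between mice is seen only through the standard error of each fold change, and neither values per mouse nor genes with a like pattern over the mice can be given.

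TDP-43, the product of *Tardbp*, is a nuclear protein that binds UG-rich RNA and keeps cryptic exons out of mature transcripts. In most ALS it leaves the nucleus of affected motor neurons and forms cytoplasmic inclusions, whereas ALS with *SOD1* mutations is generally set apart by the lack of these inclusions. The other proteins share RNA recognition motifs, low-complexity domains or a place in stress granules, the cytoplasmic assemblies of stalled messenger RNA that form when translation stops. *UNC13A* differs from the rest: it encodes a synaptic protein, common variants in the human gene are associated with ALS, and loss of nuclear TDP-43 in human neurons lets a cryptic exon into its transcript. Counts per gene measure the amount of a transcript and not its splicing, the place of its protein in the cell or the inclusion of a cryptic exon.

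The sequence of *Hnrnpa1* may bear on how well that gene was measured. Of the 100-base windows along its longest coding transcript, 42.2% were also found in annotated pseudogenes elsewhere in the mouse genome, 11 in all. The pseudogene *Gm10052* alone held 42.1% of the windows. Reads that align to more than 1 place were not counted. The reads were paired-end according to the study's methods, so a shared window need not make a whole pair ambiguous. A 60-base stretch of an *Hnrnpa1* coding exon (chr15:103241458-103241517, plus strand) is shown because 3 of the 11 pseudogenes hold it letter for letter. They are *Gm10052*, *Gm5643* and *Hnrnpa1l2-ps2*. Beside the stretch stands its best match in *Hnrnpa2b1* (chr6:51466981-51467040, minus strand). Capitals in the match mark the 23 bases that differ, and 61.7% of bases are identical. Both are given 5′ to 3′ on the strand of the gene, from the GENCODE M21 transcripts on GRCm38, the build that mm10 denotes.
Hnrnpa1: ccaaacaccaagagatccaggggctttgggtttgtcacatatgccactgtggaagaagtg
Hnrnpa2b1: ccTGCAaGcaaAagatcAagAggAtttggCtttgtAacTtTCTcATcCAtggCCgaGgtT

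The second pair of sequences is shown because TDP-43 binds UG repeats. The longest run of alternating T and G was sought on the transcript strand of the longest coding transcript of each gene, and it was longest in *Unc13a* and *Tardbp* among the 9 genes, in the 3′ UTR of both (chr8:71628386-71628415 and chr4:148613760-148613789, both on the minus strand of GRCm38). Capitals mark the run, of 12 bases in *Unc13a* and 9 bases in *Tardbp*.
Unc13a: ctctgcacaTGTGTGTGTGTGgctgtgtgt
Tardbp: tcctcctataGTGTGTGTGgacagcccaca
Runs at least as long are common in transcripts within 10% of the same length: 24.3% of 321 such transcripts held one for *Unc13a* and 31.6% of 808 for *Tardbp*. *Unc13a* and *Tardbp* also had the longest of these transcripts, of 10255 and 7477 bases. The other 7 genes had longest runs of 5 to 8 bases. Among the 9 genes the smallest such share was that of *Hnrnpa1*, whose run of 8 bases in the 3′ UTR was matched in 14.4% of 2119 transcripts. A run of these letters is a description of the transcript and not a site at which TDP-43 was seen to bind.

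*Tardbp* (chr4:148612382-148627019, minus strand) had a base mean of 4805, the mean over all 10 libraries of counts divided by size factors. With SOD1 G93A as numerator, the log2 fold change was 0.0308 (SE 0.0364, adjusted p = 0.74, DESeq2's Wald test with Benjamini-Hochberg adjustment over 16522 genes, n = 5 per group). The 95% interval of the fold change, from the normal distribution, ran from a change of -2.77% to one of 7.34%. With its standard error, a log2 fold change of at least 0.106 in either direction would have been called. TDP-43 regulates the amount of its own messenger RNA through the 3′ UTR, and the gene count adds its transcript forms together. The gene *Masp2*, on the opposite strand, overlaps 23.3% of the exonic bases of *Tardbp*. *Masp2* had a base mean of 838.7 and a log2 fold change of 0.0186 (adjusted p = 0.916), and whether the counting used strand is not given in the sources used here.

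*Matr3*, on chromosome 18, encodes matrin 3, an RNA- and DNA-binding protein of the inner nucleus. Its base mean of 6892 was the second highest of the 9 genes, and its log2 fold change was -0.0244 (SE 0.0329, adjusted p = 0.783). The interval spanned changes from -5.97% to 2.81%. Of its 100-base windows, 25.3% lay in sequence shared with overlapping annotated genes, the longest of which, *Gm28285*, runs on the same strand and is not listed in the table.

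*Ewsr1* and *Taf15* belong to the FET family of RNA-binding proteins, which carry a low-complexity domain and RGG repeats. *Ewsr1* (chr11:5069689-5099266, minus strand) had a base mean of 4807 and a log2 fold change of 0.0482 (SE 0.0336, adjusted p = 0.495), with an interval from -1.22% to 8.23%. *Taf15* (chr11:83473086-83506743, plus strand) had a base mean of 1334 and a log2 fold change of 0.0631 (SE 0.0531, adjusted p = 0.603), with an interval from -2.79% to 12.3%. Both point estimates were positive and neither was further than 2 standard errors from 0. *Taf15* shared no 100-base window with another annotated gene. *Ewsr1* shared 8.28% of its windows with pseudogenes elsewhere and 6.39% with *Rhbdd3*, which overlaps it on the opposite strand and had a log2 fold change of 0.0448 (adjusted p = 0.8).

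*Hnrnpa1* and *Hnrnpa2b1* encode abundant nuclear proteins that coat new transcripts and take part in splicing, and mutations in their prion-like domains cause multisystem proteinopathy and ALS. *Hnrnpa2b1* (chr6:51460932-51469894, minus strand) had the highest base mean of the 9 genes, 7211, and a log2 fold change of 0.0569 (SE 0.0413, adjusted p = 0.519), with an interval from -0.0241 to 0.138 on the log2 scale. *Hnrnpa1* (chr15:103240432-103246692, plus strand) had the lowest base mean, 112.5, and the widest interval, from -15.2% to 7.23% (log2 fold change -0.0686, SE 0.0863, adjusted p = 0.763). A log2 fold change of 0.252 would have been needed for a call at *Hnrnpa1*, against 0.0862 to 0.162 at the other 8 genes. Of the copies whose stretch is printed above, *Gm10052* was listed at a base mean of 0, *Gm5643* at 1.526 and *Hnrnpa1l2-ps2* at 0.2965. The base mean of *Hnrnpa1*, like that of every gene, counts only the reads that were placed uniquely. How many reads *Hnrnpa1* lost in this way was not measured, so its base mean is an uncertain measure of the amount of *Hnrnpa1* RNA.

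*Tia1* and *Atxn2* encode proteins of stress granules. TIA1 helps to assemble them through its prion-like domain, and ataxin 2 binds poly(A)-binding protein and carries a polyglutamine tract whose intermediate expansions raise the risk of ALS. *Tia1* (chr6:86404219-86433405, plus strand) had the smallest fold change of the 9 genes, a log2 value of 0.0108 (SE 0.0556, adjusted p = 0.956) at a base mean of 1532, with an interval from -6.57% to 8.65%. *Atxn2* (chr5:121711337-121816493, plus strand) had the smallest p-value, 0.108 (log2 fold change -0.0475, SE 0.0295, adjusted p = 0.416) at a base mean of 2608. Its interval, from -7.05% to 0.723%, was the narrowest of the 9 genes on the log2 scale. Only 0.821% of the 2071 genes with a base mean within 1.5 times that of *Atxn2* had a smaller standard error.

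*Unc13a* (chr8:71624417-71671757, minus strand) encodes Munc13-1, which prepares synaptic vesicles for fusion at the presynaptic active zone. Its base mean was 4790, and its log2 fold change was -0.0548 (SE 0.0472, adjusted p = 0.615). The interval ran from a change of -9.71% to one of 2.65%, and a log2 fold change of 0.138 in size would have been called.

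**Figure D1:**
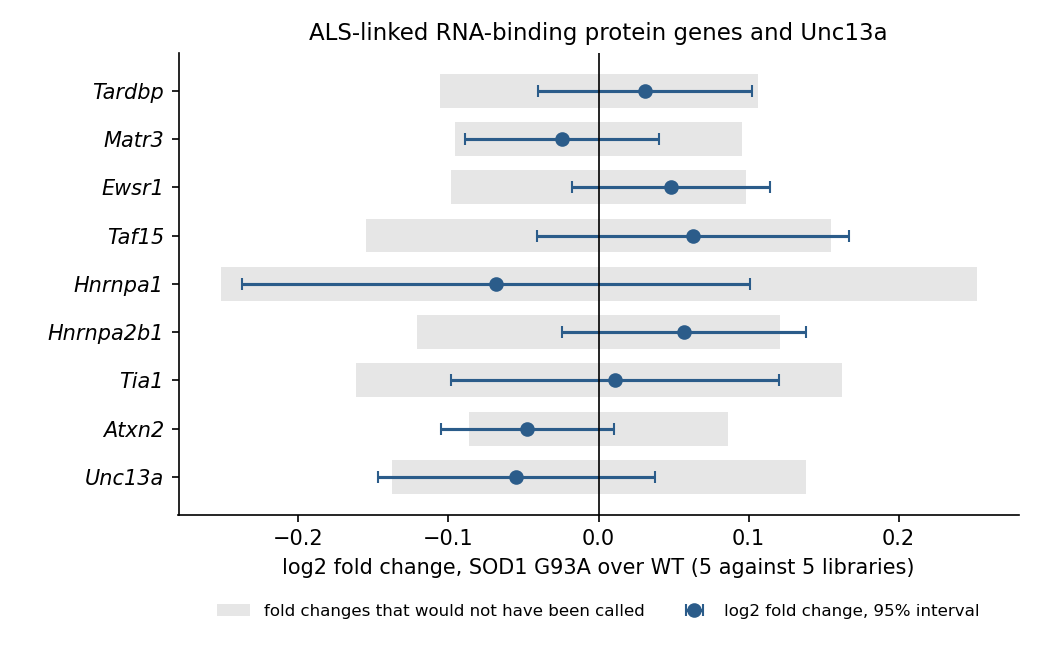
The points are the log2 fold changes of the 9 genes, SOD1 G93A over WT, with 95% intervals as bars, and the grey bands are the sizes of change that would not have been called at each gene's standard error. All 9 points lie inside their bands and all 9 intervals cross 0; the band is widest at *Hnrnpa1* and narrowest at *Atxn2*.

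The unadjusted p-values of the 9 genes ran from 0.108 to 0.846. Thus 0 of 9 lay under 0.05 without adjustment, where 18.3% of all genes tested did, and the smallest adjusted p-value was 0.416. The fold changes of 4 genes were within 1 standard error of 0 and those of all 9 within 2. The median log2 fold change was 0.0108, against -0.00138 over all genes tested, and the median size of the log2 fold change was 0.0482, against 0.0562. The median standard error was 0.0413, against 0.0633 over all genes tested. A p-value that misses the threshold does not show that the groups are equal. For all 9 fold changes as deposited, increases of more than 12.3% and decreases beyond -15.2% lay outside the interval. These intervals are wider where the moderation described below is removed.

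**Figure D2:**
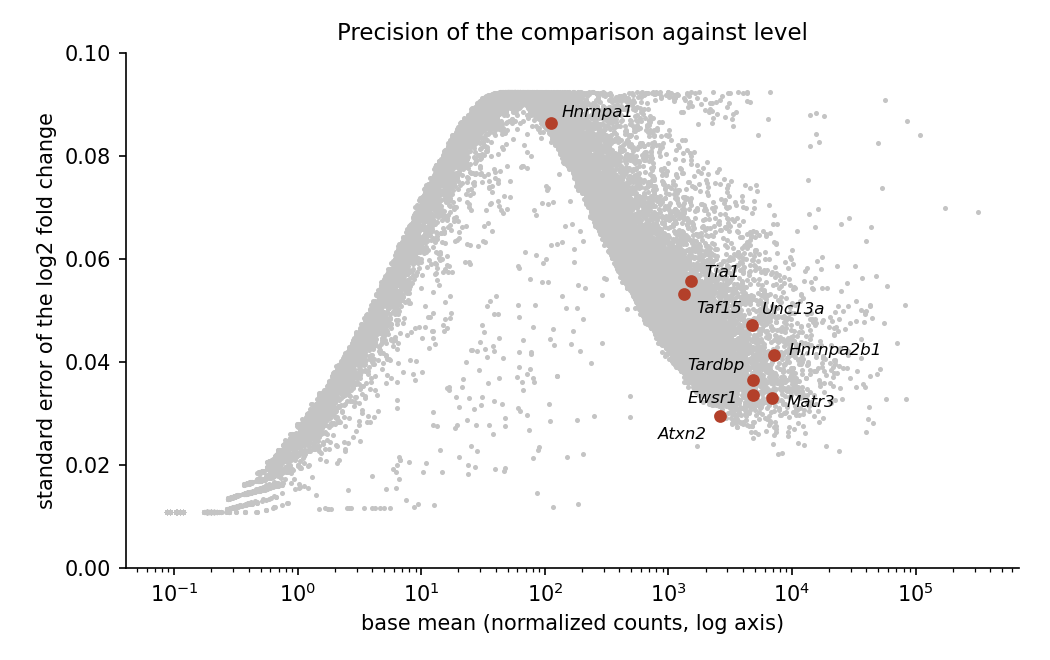
Each grey point is a gene, with its base mean on a log axis and the standard error of its log2 fold change, and the red points are the 9 genes. *Atxn2* has the smallest standard error of the 9, 0.0295, and *Hnrnpa1* the largest, 0.0863; standard errors peak at 0.0924 and decline again at low base means.

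Standard errors reached at most 0.0924, at a base mean of 60.2, and fell to 0.0108 at the lowest levels, which is the shape that a normal prior centred on 0 gives to moderated fold changes. A prior of this kind draws fold changes towards 0, and more so where counts are few. The equation that removes its effect has a smaller and a larger solution, and the smaller was taken for all 9 genes. With it, the log2 fold change of *Hnrnpa1* was -0.101 (SE 0.127) and its interval ran from -21.6% to 10.8%. The standard error of *Hnrnpa1* lies near the peak. The larger solution for this gene is a log2 fold change of -0.213 (SE 0.268), with the same p-value. Its interval runs from -0.737 to 0.312 on the log2 scale. For the other 8 genes, *Tardbp*, *Matr3*, *Hnrnpa2b1*, *Tia1*, *Ewsr1*, *Taf15*, *Atxn2* and *Unc13a*, the smaller solution moved the fold change less than for *Hnrnpa1*, and the larger one, not used, would move it more. No p-value depends on the choice.

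Levels were compared between genes per kilobase of exon, with exon lengths from GENCODE M21. *Hnrnpa2b1* was highest at a base mean of 1095 per kilobase, at the 94.8 percentile of the 16170 tested genes with a length. *Ewsr1* at 813.7, *Matr3* at 678.5, *Tardbp* at 616.3, *Taf15* at 457.0 and *Unc13a* at 379.5 followed. *Atxn2* stood at 166.3 and *Tia1* at 97.24, near the middle of all genes, and *Hnrnpa1* was lowest at 35.69, at the 26.6 percentile. The median of the 9 genes was 457 per kilobase, against 109 over all genes. These are means over both groups without a spread between libraries, so the order of neighbours was not tested. The level depends on the length used: with the longest transcript in place of all exons, *Tia1* stood at 342.1 per kilobase and *Taf15* moved above *Tardbp*, while the order of the other genes was the same.

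**Figure D3:**
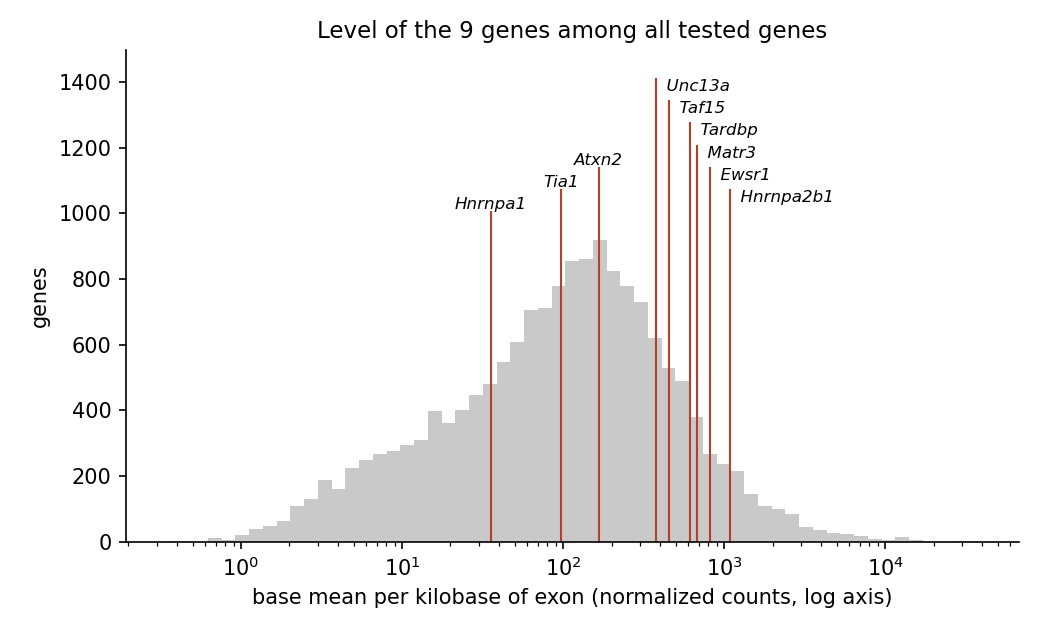
The grey bars count the 16170 tested genes by base mean per kilobase of exon on a log axis, and the red lines mark the 9 genes. The lines from *Unc13a* at 379.5 to *Hnrnpa2b1* at 1095 stand at or above the 81.5 percentile of these genes, and *Hnrnpa1* at 35.69 stands at the 26.6 percentile.

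Promoter windows of 8 of the 9 genes, all but *Matr3*, were read from RefSeq on GRCm38.p6, each spanning the start of the gene. The GC content ran from 48% (*Tia1*) to 74.3% (*Atxn2*), against a median of 60.3% over the 12895 tested genes with a window. The ratio of observed to expected CpG was above the median of all windows, 0.729, in 7 of the 8 genes, with *Tia1* at 0.711 and *Hnrnpa2b1* the highest at 1.28.

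The families to which these genes belong were described by counts, to be read against the shares of all genes tested: 3.86% were called as higher, 3.24% as lower, and 18.3% had an unadjusted p-value under 0.05. Of 27 hnRNP proteins, *Hnrnpa1* and *Hnrnpa2b1* included, 1 rose and 0 fell, and 2 had an unadjusted p-value under 0.05. The gene that rose was *Ptbp1*, a splicing repressor that is low in mature neurons, with a log2 fold change of 0.248 (SE 0.0631, adjusted p = 0.00264). The median of this list was 0.0261, and 1 of 27 higher is near the share of all genes. Of 21 stress granule proteins, *Tia1* and *Atxn2* included, 1 rose and 1 fell, and 3 had an unadjusted p-value under 0.05. *Pabpc1*, the cytoplasmic poly(A)-binding protein with which ataxin 2 interacts, rose by 0.176 on the log2 scale (SE 0.0407, adjusted p = 0.000598), and *Fxr2*, a relative of the fragile X protein, fell by 0.12 (SE 0.0373, adjusted p = 0.0232). The median of the stress granule list was 0.00458, and 1 of 21 in each direction is likewise near the shares of all genes.

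Transcripts of protein families that carry or modify RNA-binding proteins were measured too. Of 12 nuclear import receptors, the carriers that bring such proteins into the nucleus, 0 were called and 1 had an unadjusted p-value under 0.05, *Ipo4*, with a log2 fold change of -0.104 (SE 0.0439, adjusted p = 0.149). *Tnpo1*, the import receptor of the FET proteins, had a log2 fold change of 0.0753 (adjusted p = 0.541). Of 9 arginine methyltransferases, some of which modify the RGG repeats of FET proteins, 0 were called and 0 reached an unadjusted 0.05. The smallest p-value among them was that of *Prmt9*, with a log2 fold change of -0.092 (SE 0.0534, adjusted p = 0.366), and the main asymmetric methyltransferase, *Prmt1*, had a log2 fold change of 0.00377. The list medians were 0.000203 and -0.0177.

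Transcripts with very long introns that TDP-43 binds are known to be lowered when TDP-43 is removed from the mouse nervous system. Of 7 such transcripts, 0 were called and 2 had an unadjusted p-value under 0.05, in opposite directions. *Fgf14* had a log2 fold change of -0.109 (SE 0.0519, adjusted p = 0.227) and *Kcnd2* one of 0.0996 (SE 0.049, adjusted p = 0.25). The median of the 7 was -0.0287, against -0.00138 over all genes tested. Of the 7 values 5 were negative, beside 8382 of all 16522 genes tested, and no test of the list was made. *Tnpo1*, *Prmt1* and *Kcnd2* were chosen for mention after their values were seen.

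Of 7 paralogs of the 9 genes, 0 were called. The single unadjusted p-value under 0.05 was that of *Unc13b*, which encodes Munc13-2, with a log2 fold change of 0.166 (SE 0.079, adjusted p = 0.228) at a base mean of 514.7. The third brain form, *Unc13c*, had a log2 fold change of 0.0667 (adjusted p = 0.325), and *Unc13d*, known for granule release in immune cells, one of 0.0164 (adjusted p = 0.959). *Hnrnpa0* and *Hnrnpa3* stood at -0.0806 and 0.0472, *Tial1* at -0.0118 and *Atxn2l* at 0.0185, each on the log2 scale and with adjusted p-values of 0.596 to 0.913. The median of the paralogs was 0.0185.

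*Unc13a* was set beside the genes whose products work with Munc13-1 at the synapse. Of 23 genes of the presynaptic release machinery, 5 fell and 1 rose, and 12 had an unadjusted p-value under 0.05, beside 3.24%, 3.86% and 18.3% of all genes tested; the median log2 fold change was -0.022, and no test of the list was made. *Vamp1*, the vesicle SNARE of motor terminals, fell by 0.226 on the log2 scale (SE 0.0586, adjusted p = 0.0034), and *Syt2*, a fast calcium sensor of release, fell by 0.178 (SE 0.0488, adjusted p = 0.00658). *Rims1*, whose product binds Munc13-1 at the active zone, fell by 0.124 (SE 0.0348, adjusted p = 0.00907). *Cplx1* fell by 0.153 and *Ppfia3* by 0.104, with adjusted p-values of 0.0393 and 0.0394. *Syt1*, another calcium sensor, rose by 0.236 (SE 0.0732, adjusted p = 0.0232). *Rims1*, *Cplx1* and *Ppfia3* were named after their values were seen, and the difference between *Unc13a* and these genes was not tested.

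**Figure D4:**
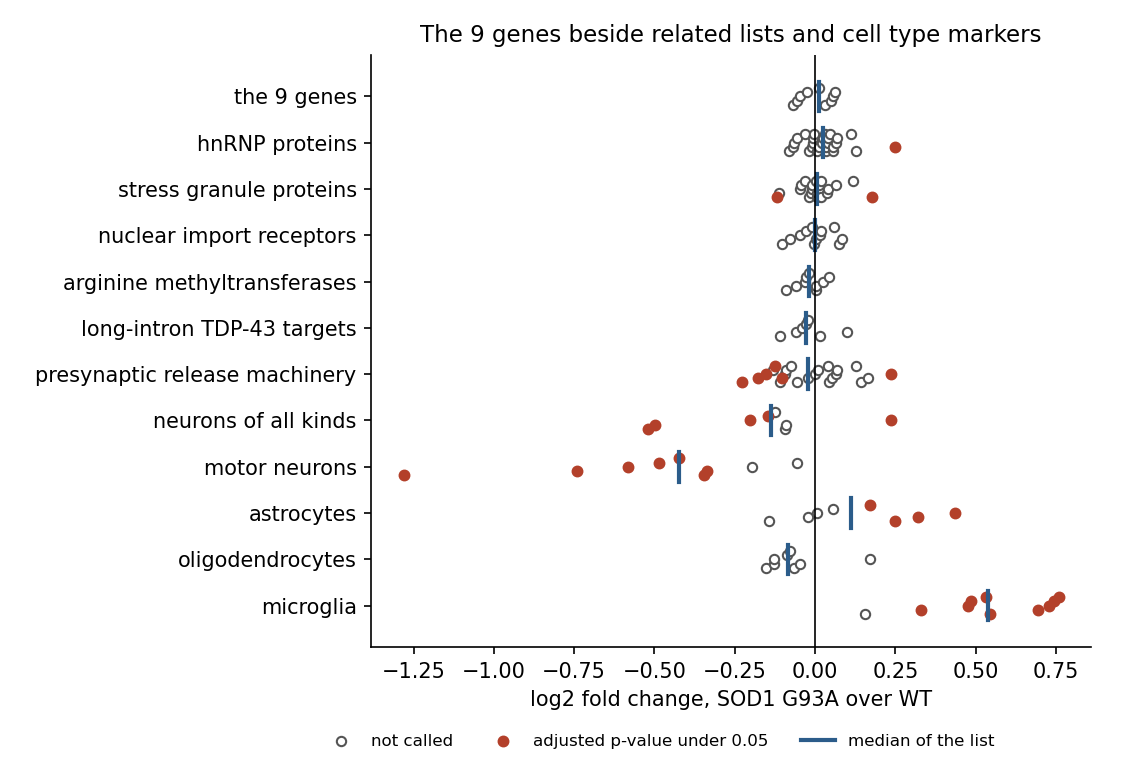
Each circle is a gene, placed by its log2 fold change (SOD1 G93A over WT) and filled where its adjusted p-value was under 0.05, and blue lines are list medians. The 9 genes lie between -0.0686 and 0.0631 with no filled circle, while microglia markers lie to the right (median 0.539) and motor neuron markers to the left (median -0.424).

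Markers of other cell types were read in the same table, because the RNA-binding proteins are made in most cells and *Unc13a* mainly in neurons. Of 10 microglia markers 9 rose, with a median of 0.539 (*C1qc*, 0.758, adjusted p = 2.18e-36), and of 8 astrocyte markers 4 rose, with a median of 0.113 (*Aqp4*, 0.321). Of 9 motor neuron markers 7 fell, with a median of -0.424 (*Chodl*, -1.28, adjusted p = 1.73e-48). Of 8 markers of neurons of all kinds 4 fell and 1 rose, with a median of -0.136 (*Nefl*, -0.498). None of the 8 oligodendrocyte markers was called by DESeq2's test, and 3 had an unadjusted p-value under 0.05. Their median was -0.0839 and 7 of the 8 were negative, with *Cldn11* the one positive at 0.172. None of 4 oligodendrocyte precursor markers was called (median 0.00907, *Gpr17* 0.152), and 1 had an unadjusted p-value under 0.05. The 5 endothelial markers had a median of 0.0526, 4 of 5 positive, with *Cldn5* the one negative at -0.148. The 3 Schwann cell markers had a median of -0.0129 (*Pmp2*, -0.0367). In these last lists 0 were called and 0 had an unadjusted p-value under 0.05. In bulk tissue, fewer cells of a type and less RNA per cell cannot be told apart, and the part of these shifts in the values of the 9 genes was not tested. The labelled tissue was met by 6 *Hox* genes of the trunk and lumbar cord with a summed base mean of 2474 (*Hoxc9*, -0.134, adjusted p = 0.304). The mouse *Sod1* gene had a base mean of 3849 and a log2 fold change of -0.05 (SE 0.0453, adjusted p = 0.639). The table has no entry for the human transgene, so the genotype of the libraries could not be checked with it.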

How the data were processed

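Bulk RNA-seq of spinal cord from 5 SOD1 G93A and 5 WT mice was used, grouped by the sample labels. According to the study's methods and the submitters' processing notes, stranded mRNA libraries were filtered with Fastp, aligned to mm10 with HISAT2 2.1.0, counted on genes with featureCounts 2.0.2 from uniquely mapped reads and compared with DESeq2. The annotation, the strand setting of the counting, the DESeq2 version and any prior are not given in the sources used here.

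The deposited base mean is a signal that the authors made by averaging counts divided by size factors over all libraries. The deposited log2 fold change and its standard error, on the log2 scale, come from the authors' DESeq2 fit. The deposited Wald statistic is a score, the ratio of fold change to standard error, and the deposited p-value follows from it. The header does not name the numerator of the fold change; the study's text gives SOD1 G93A over WT. No library's counts or depth are known here, so the fit could not be repeated, the precision of each value rests on its standard error, and these columns are used as deposited.

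Adjusted p-values were recomputed by the Benjamini-Hochberg method for the 16522 genes that carried one, differing from the deposited one by at most 1.93e-06, and genes under 0.05 were called. The lowest base mean tested was 5.81. Intervals are the fold change plus and minus the normal quantile times the standard error. A prior SD of 0.185 was taken from the largest standard error. Sequences, exons and shared windows come from GENCODE M21 and promoters from RefSeq; protein sequences were not used here. Alternatives were thresholds of 0.01 and 0.1, adjustment over other gene sets (all with a p-value, base mean of at least 10 or 100), Holm or no adjustment, centring, removal of the prior and another length.

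The 9 genes and all lists were chosen with earlier results of these data known. Named genes are the 9, *Sod1*, in each pathway list the called genes (with over 4, the 2 smallest p-values in each direction; with none, the smallest p-value) and in each marker list the smallest p-value; others are stated in the text. Some genes that this rule covers are not reported here. Figures were drawn with matplotlib 3.10.9, and values computed in Python 3.11.15 with statsmodels 0.14.6, scipy 1.17.1, pandas 2.3.3 and numpy 2.4.6; the computations were tested on simulated data.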

Additional observations from a re-analysis of the deposited data

How the results depend on the processing

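None of the 9 genes crossed the threshold under any of 9 alternatives. Direction was not open to change under any of them, so its constancy is no check. Centring subtracts the median of all genes tested, -0.00138, which is smaller in size than the smallest log2 fold change, 0.0108 at *Tia1*. The other alternatives cannot turn a sign. The number of genes called among the 9 was 0 in each direction under every threshold and adjustment tried, and the smallest adjusted p-value over these adjustments was 0.382. This count was not open to change either, so it is no check. The smallest unadjusted p-value of DESeq2's Wald test was 0.108, above the loosest threshold of 0.1, and adjustment cannot lower a p-value. Removal of the prior kept the same p-values, and only centring recomputed them. Removing the prior, with the smaller solution for every gene, multiplied the fold changes by 1.03 to 1.48, the most at *Hnrnpa1*, whose larger solution is -0.213 against -0.0686 as deposited; which solution holds was not tested. The level per kilobase moved by more than 1.5 times in 5 of the 9 genes when the longest transcript set the length, by up to 3.52 times (*Tia1*). No paired analysis was possible because the table holds no values of single libraries, although the labels number the mice of both groups alike, and leaving out single mice was not run for the same reason. The standard error limits the precision, most at *Hnrnpa1*.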
